A study of Homo sapiens with 3 samples.

Results

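SPRR1B, SPRR3, LY6D, LY6G6C, PI3, SLPI, CST6 and RARRES2 are 8 of the 33538 genes in the deposited count matrices of a human intestinal co-culture. SPRR1B and SPRR3 are proteins of a sheet under the plasma membrane, and the others are secreted or surface proteins. Several, though not all, are best known from stratified epithelium. The 8 genes were selected on their measured UMI counts in these same libraries, being high together in cells of the HT29 line. Their levels across cell classes and their co-expression are therefore given as description, with no test. All but PI3 also stand in the gene list that the study drew up for these cells from its control libraries. The co-culture joined Caco-2 (passage 8) and HT29 (passage 13), established lines from colorectal carcinoma, at 9 parts to 1 in the apical chamber of 3 Transwells, which are permeable inserts on which the cells form a polarised layer. In 2 Transwells (control 1 and control 2) the cells were left untreated until harvest on day 23. The remaining Transwell (LPS) received 1 ng/ml of lipopolysaccharide from Escherichia coli O111:B4 on the apical side on day 22, 24 hours before harvest. Both lines in all 3 Transwells were cancer lines from a single passage each. Nothing in the labels says that the Transwells came from separate cultures beyond the inserts themselves, so the spread between the 2 controls may be technical.

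In the skin and in other stratified epithelia, cells that leave the basal layer build a cornified envelope, a sheet of crosslinked protein under the plasma membrane. SPRR1B and SPRR3 are small proline-rich proteins that transglutaminases crosslink into that sheet. LY6D and LY6G6C belong to the LY6/uPAR family of small proteins anchored to the cell surface by a lipid. PI3 (elafin, also a transglutaminase substrate) and SLPI are secreted inhibitors of serine proteases with WAP domains. CST6 (cystatin E/M) inhibits cysteine proteases, legumain among them, and RARRES2 (chemerin) is secreted as a precursor that attracts cells carrying its receptor CMKLR1 once proteases have trimmed it. In the intestine, PI3 and SLPI are known as secreted defence proteins of mucosal surfaces, whereas SPRR1B and SPRR3 are best known from squamous tissue.

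All 8 members are protein-coding genes (positions on GRCh38.p14, RefSeq annotation). SPRR3 (ENSG00000163209, chr1:153001749-153003856) and SPRR1B (ENSG00000169469, chr1:153031203-153032900) lie 27.3 kb apart on chromosome 1. PI3 (ENSG00000124102, chr20:45174902-45176544) and SLPI (ENSG00000124107, chr20:45252239-45254564) lie 75.7 kb apart on chromosome 20. LY6G6C (ENSG00000204421) is at chr6:31718648-31721746, CST6 (ENSG00000175315) at chr11:66012008-66013505 and RARRES2 (ENSG00000106538) at chr7:150338329-150341629. LY6D (ENSG00000167656) is at chr8:142784882-142786539. The 4 other members therefore have no member as a close neighbour.

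The matrices held 5811, 6495 and 6838 cell barcodes with 33893707, 27934953 and 24185467 UMIs (unique molecular identifiers, 1 for each captured transcript molecule) in control 1, control 2 and LPS. After filtering, 4633, 4989 and 4850 cells remained, 14472 in all, with median depths of 5452, 4101 and 3572.5 UMIs. Libraries shared 9 to 11 barcodes by pair, of which 4 to 6 were kept, and 0 pairs held identical cells. Clustering gave the Caco-2-type classes, called here as in the study ISCLC (stem cell-like), TALC (transit amplifying-like), ECLC (enterocyte-like) and LYZ+ ECLC. It also gave goblet-like GCLC, enteroendocrine-like EECLC, FGEC (cells with fetal genes) and U-HT29, the HT29 cells without a differentiated profile. Another 4 clusters, of 2990, 634, 527 and 77 cells (20.7%, 4.38%, 3.64% and 0.532% of those kept), met no class's markers, stayed without a name and entered no LPS comparison by class. They did enter the alternative that assigned all 14472 kept cells by line-specific genes, 2433 to HT29 and 12039 to Caco-2. LYZ+ ECLC was named on 5 markers, 4 of them raised, and SPRR1B, RARRES2, LY6D and SLPI were among its 10 leading genes by fold, with no enterocyte marker there. Its cells had a median of 22.7% of line-specific UMIs on the HT29 list, against 19.4% in ECLC and 37.0% in U-HT29, so the Caco-2-type values are given with and without it. U-HT29 held 2388 cells (625, 948 and 815), which were 13.5%, 19.0% and 16.8% of the kept cells. Of its 16 markers, 15 or 16 were raised in each of its 4 subclusters, and 2241 of the 2388 cells also passed as HT29 by the share of their UMIs on genes of HT29 grown alone. Members were left out of the genes used for clustering, and classes were rebuilt here, so they need not hold the study's own cells.

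By control mean, all 8 members stood highest in U-HT29 among the classes. Levels are CPM, the UMIs of a gene divided by all UMIs of the class in a library and scaled to counts per 1000000, with the mean ± SD over the 2 controls, and intervals and floors cover counting error only. SPRR1B was at 259 and 146 CPM in the controls (203 ± 79.9, n = 2) and at 189.8 CPM in LPS. SPRR3 was at 77.5 and 23.1 CPM (50.3 ± 38.5, n = 2) and at 34.5 CPM in LPS. For both cornified envelope genes control 1 was the highest library and LPS lay between the controls. LYZ+ ECLC came next, with 80.9 ± 28.8 CPM for SPRR1B and 11.7 ± 2.72 CPM for SPRR3 (n = 2), below the lower U-HT29 control in both cases. SPRR3 had 0 UMIs in ISCLC of every library, which allows up to 1.14, 1.47 and 1.93 CPM (3 counts of that class's UMIs).

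The surface proteins LY6D and LY6G6C had the same ranking of libraries, control 1 highest and control 2 lowest. LY6D was at 77.7 and 32.4 CPM in U-HT29 of the controls (55.1 ± 32.1, n = 2) and at 59.2 CPM in LPS. LY6G6C was at 68.4 and 35.3 CPM (51.9 ± 23.4, n = 2) and at 46.1 CPM in LPS. LY6D in LYZ+ ECLC, next in order, was at 20.9 ± 7.52 CPM (n = 2), below both U-HT29 controls. LY6G6C is the member with the least separation, since FGEC, a class of 23 and 42 control cells, had 51.2 ± 24.2 CPM (n = 2), not apart from U-HT29 beyond the spread.

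Among the inhibitors, PI3 had the most UMIs in U-HT29, 2331, 1152 and 1369. PI3 was at 571.7 and 282.7 CPM in U-HT29 of the controls (427 ± 204, n = 2) and at 397.4 CPM in LPS. SLPI was at 398 and 260.4 CPM (329 ± 97.3, n = 2) and at 237.2 CPM in LPS. CST6 was at 71.9 and 42.0 CPM (56.9 ± 21.1, n = 2) and at 33.7 CPM in LPS. For SLPI and CST6 the LPS library was thus below both controls, and for PI3 between them. PI3 was also found in ECLC, at 153 and 163 CPM in the controls (158 ± 6.88, n = 2) and 123 CPM in LPS, where no other member passed 12 CPM by control mean. Between U-HT29 and ECLC for PI3 stood LYZ+ ECLC at 187 ± 117 CPM and a cluster without a name at 171 ± 153 CPM (n = 2 each), and these 3 classes below U-HT29 did not differ beyond their spread. SLPI in that unnamed cluster, of 9, 26 and 42 cells, was at 282 ± 310 CPM (n = 2), not apart from U-HT29 beyond the spread. In 3 further clusters without a name PI3 was at 45.5 to 60.4 CPM by control mean. By control mean CST6 was far lower outside U-HT29, with 12.4 ± 0.175 CPM (n = 2) in LYZ+ ECLC. In LPS, however, CST6 in LYZ+ ECLC was at 32.9 CPM, on 10 UMIs, beside 33.7 CPM in U-HT29.

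RARRES2 was at 152.3 and 79.8 CPM in U-HT29 of the controls (116 ± 51.3, n = 2) and at 58.6 CPM in LPS, below both controls. LYZ+ ECLC had 48.6 ± 8.55 CPM and FGEC 38.2 ± 28.7 CPM (n = 2 each), which overlapped each other but not U-HT29.

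**Figure D1:**
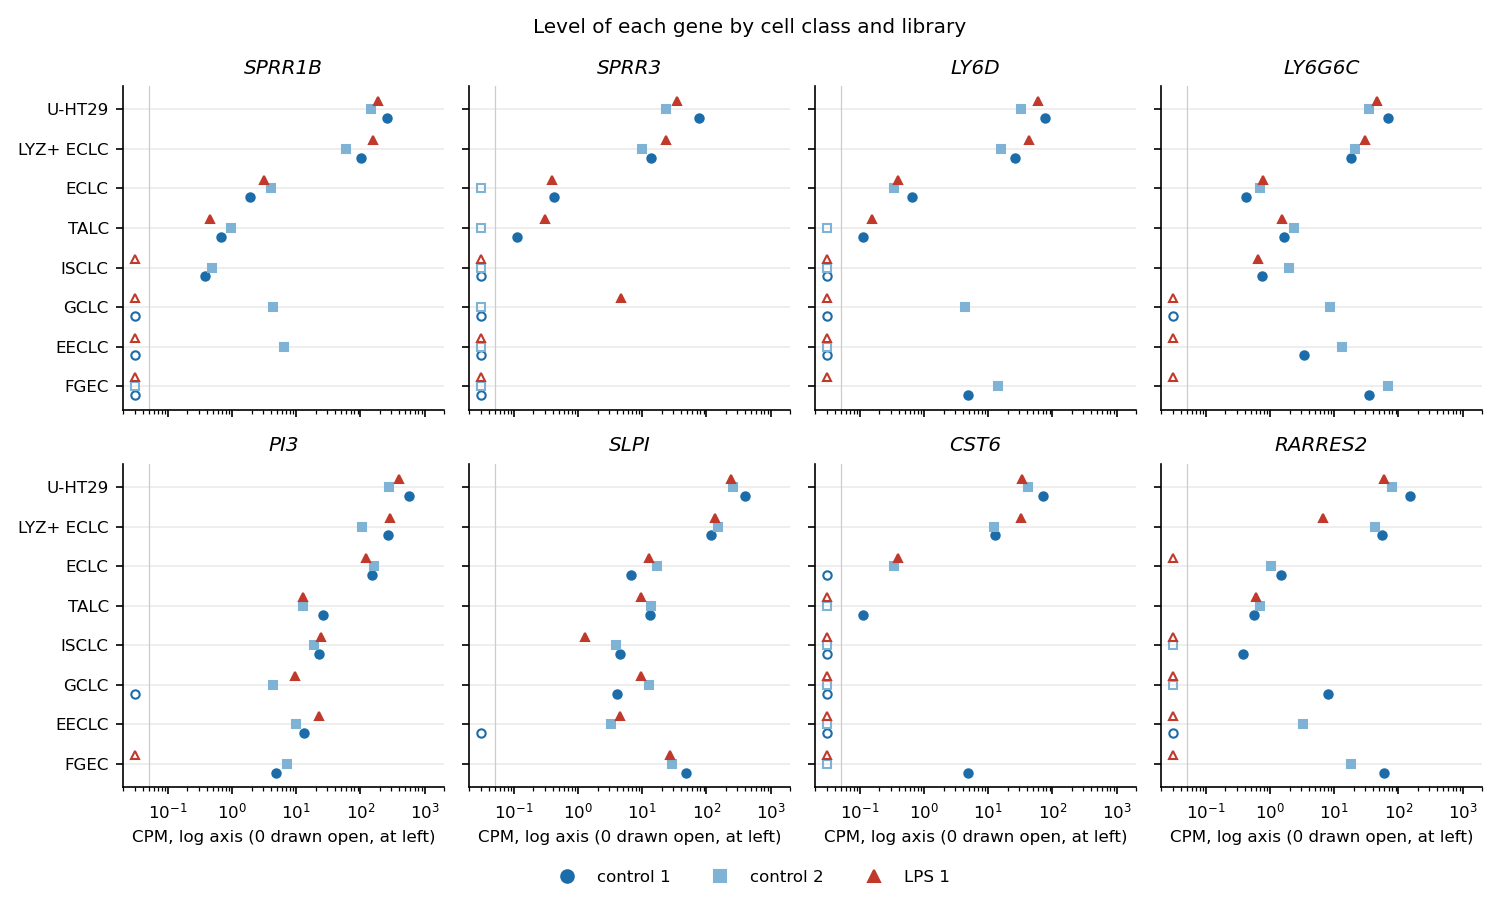
Level of each member (CPM, log axis) in each cell class, with 1 point per library. U-HT29 has the highest control mean for all 8 members, and PI3 is the member that also stands near 158 CPM in ECLC.

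At a fixed depth per cell SPRR1B and SLPI were found in far more cells of U-HT29 than of ECLC. The PI3 share was similar in both classes, or higher in ECLC in control 2. When every cell was thinned to 1500 UMIs, a SPRR1B UMI was found in 15.8%, 11.8% and 12.9% of U-HT29 cells (control 1, control 2, LPS; exact 95% binomial intervals 13.1 to 18.9%, 9.83 to 14% and 10.7 to 15.4%), and without thinning in 30.4%, 21.0% and 20.7%. For SLPI the thinned shares were 31.5%, 24.9% and 20.9% in U-HT29 and 0.764%, 2.13% and 0.799% in ECLC. Median depths were 5523, 3756 and 3683 UMIs in U-HT29 and 5236, 4050 and 3558 UMIs in ECLC. SPRR1B in ECLC was at 0.637%, 0.327% and 0.479%. Both were thus far above their shares in ECLC, whose depth was close. PI3 behaved differently: 19.0%, 19.0% and 14.2% of ECLC cells had a UMI (LPS interval 11.6 to 17.2%), against 19.8%, 14.3% and 15% of U-HT29 cells (LPS interval 12.6 to 17.6%). The PI3 shares of the 2 classes were close in control 1 and LPS. In control 2 the ECLC share was the higher (ECLC interval 15.9 to 22.3%). The PI3 levels in CPM, in contrast, were 427 in U-HT29 and 158 in ECLC by control mean. Some U-HT29 cells held many PI3 molecules. The highest single U-HT29 cell had 81, 51 and 56 PI3 UMIs of its 1500, and the top 10% of cells held 88.5%, 89.8% and 90.7% of the thinned PI3 UMIs. For SLPI, the top 10% of U-HT29 cells held 60.5%, 65.4% and 69.1%, a more even spread than for PI3. The remaining members had a UMI in 2.74% (SPRR3 in control 2) to 18.6% (RARRES2 in control 1) of thinned U-HT29 cells.

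U-HT29 gave 13.6%, 16.7% and 16.9% of all UMIs of the kept cells but most UMIs of each member. For CST6 the share of its UMIs that came from U-HT29 was 95.4%, 91.4% and 91.3%, for SPRR3 95.2%, 88.7% and 91.5%, and for RARRES2 88.6%, 83.1% and 97.1%. SPRR1B and LY6D had shares from 83.0% to 93.2%. PI3 had the lowest shares, 56.8%, 51.9% and 66.5%, and LY6G6C in control 2 was also low at 60.8%.

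In ISCLC, TALC and ECLC pooled, most members were near the level that U-HT29 marker transcripts also showed there. The 16 U-HT29 markers, genes that these classes should lack, had a median of 0.618%, 0.731% and 0.620% of their U-HT29 level (ranges 0.180 to 1.06%, 0 to 2.28% and 0 to 1.64%). SPRR1B was at 0.377%, 1.12% and 0.541% of its U-HT29 level, LY6D at 0.314%, 0.253% and 0.316%, and RARRES2 at 0.521%, 0.822% and 0.637%. SPRR3 and CST6 were no higher than 0.811% in any library, so 5 of the 8 members were not above the range of the markers. LY6G6C at 1.69%, 5.33% and 2.63%, SLPI at 2.45%, 4.91% and 3.82% and PI3 at 10.9%, 17.7% and 10.3% were above the range of the markers in all 3 libraries.

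LYZ+ ECLC, with 71, 196 and 37 cells, carried more. The median member stood at 31.9%, 45.3% and 69.3% of its U-HT29 level in that class, and the median U-HT29 marker at 14.5%, 23.1% and 26.6%. RARRES2 in LPS was the lowest member there, at 11.2%, on 2 UMIs, and CST6 in LPS the highest, at 97.6%, on 10 UMIs. The median doublet score, which rises when a barcode resembles a mixture of 2 cells, was 0.122, 0.0819 and 0.168 in LYZ+ ECLC. In ECLC it was 0.0507 to 0.0570. Median depths were 12065, 5372.5 and 8133 UMIs in LYZ+ ECLC and 5236, 4050 and 3558 UMIs in ECLC. The part of mixed barcodes in the LYZ+ ECLC levels was not tested.

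**Figure D2:**
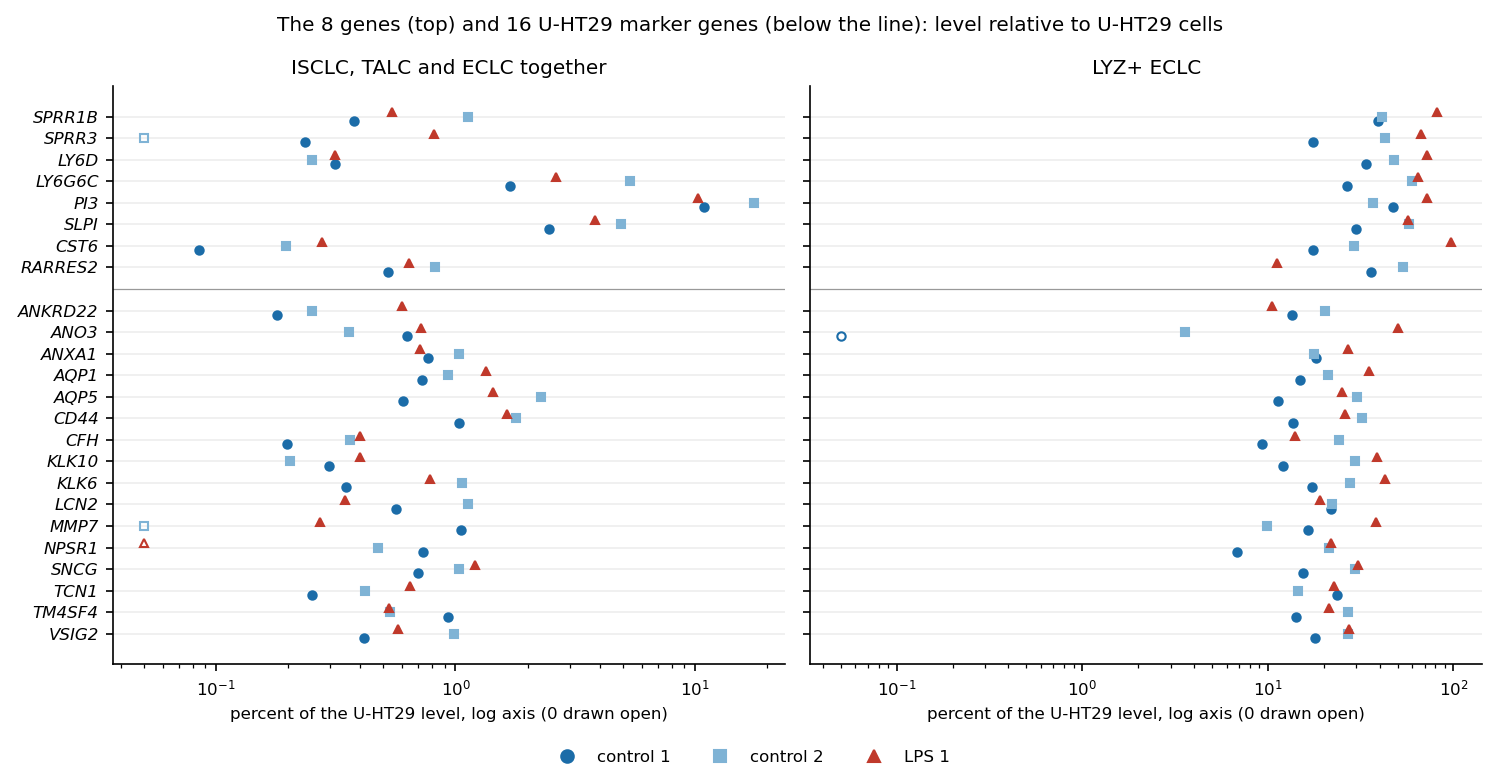
Level of each member as a percent of its own U-HT29 level (log axis) in the pooled ISCLC, TALC and ECLC and in LYZ+ ECLC, 1 point per library, beside the 16 U-HT29 markers. In the pooled classes LY6G6C, SLPI and PI3 stand above the range of the markers in all 3 libraries, and the other 5 do not.

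Within U-HT29 most members were concentrated in 1 of 4 subclusters, which were built without the members. Subcluster 3 (507 cells, 25.9%, 19.3% and 19.9% of U-HT29 in control 1, control 2 and LPS) had the highest control mean for 8 of 8 members. The members were selected for being high together, and the share over all genes was not computed, so that count is description only. Its leading genes were CALML5 and SERPINB3, both known from keratinocytes, then LY6G6C, MUC15 and PI3. Subcluster 1 (1018 cells) was led by the goblet-type genes FCGBP and REG4 with LCN15, PRSS1 and PRSS2. Subcluster 2 (558 cells) was led by the interferon-stimulated genes OASL, IFIT2, IFIT3, PSMB9 and IFITM3, and subcluster 4 (305 cells) by AC083843.3, AL683813.1, SLC5A3, AP001157.1 and CXCL8.

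PI3 had a control mean of 1532 CPM in subcluster 3 and of 44.7, 278 and 312 CPM in subclusters 1, 2 and 4. SPRR1B was at 611 CPM in subcluster 3 and at 39.7, 192 and 117 CPM in the others, and LY6G6C at 211 CPM and at 2.08, 23.3 and 39.5 CPM. In each library every member was higher in subcluster 3 than in subcluster 1. In subcluster 3 the libraries read 1944, 1120 and 1701 CPM for PI3 (control 1, control 2, LPS), 751, 470 and 608 CPM for SPRR1B, and 257, 112 and 218 CPM for LY6D. Control 1 was again the highest library and control 2 the lowest for these 3. CST6 had 228, 171 and 134 CPM and RARRES2 487, 306 and 257 CPM there, with LPS the lowest library.

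SPRR3 and SLPI were less particular about the subcluster. SPRR3 had 96.0 ± 58.6 CPM in subcluster 3 and 86.8 ± 67.7 CPM in the interferon-led subcluster 2 (n = 2 each), not apart beyond the spread. After thinning, a SPRR3 UMI was in 6.74% of subcluster 3 cells and 6.88% of subcluster 2 cells by control mean. In LPS these shares were 4.94% and 7.03%. SLPI had a control mean of 726 CPM in subcluster 3 against 389 CPM in subcluster 2. Both were lowest in subcluster 1, at 4.40 CPM for SPRR3 and 107 CPM for SLPI. The concentration in 1 subcluster was weaker where doublets were not removed. The subclusters rebuilt there were 3, and 6 of 8 members were highest in the one led by SERPINB3, with SPRR1B at 350 against 294 CPM in the next and SLPI at 533 against 492 CPM. RARRES2 and LY6D were higher in the other, at 195 against 121 CPM and 90.5 against 63.9 CPM. With every library filtered at the minimums of control 1, the leading genes were also divided. RARRES2, CST6, LY6D and LY6G6C were among those of 1 subcluster, SPRR3 of another, and SERPINB3 and KRT16 of yet another. Member levels were not taken in those subclusters. At a subcluster resolution of 0.5, 8 of 8 members stayed highest in 1 subcluster.

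**Figure D3:**
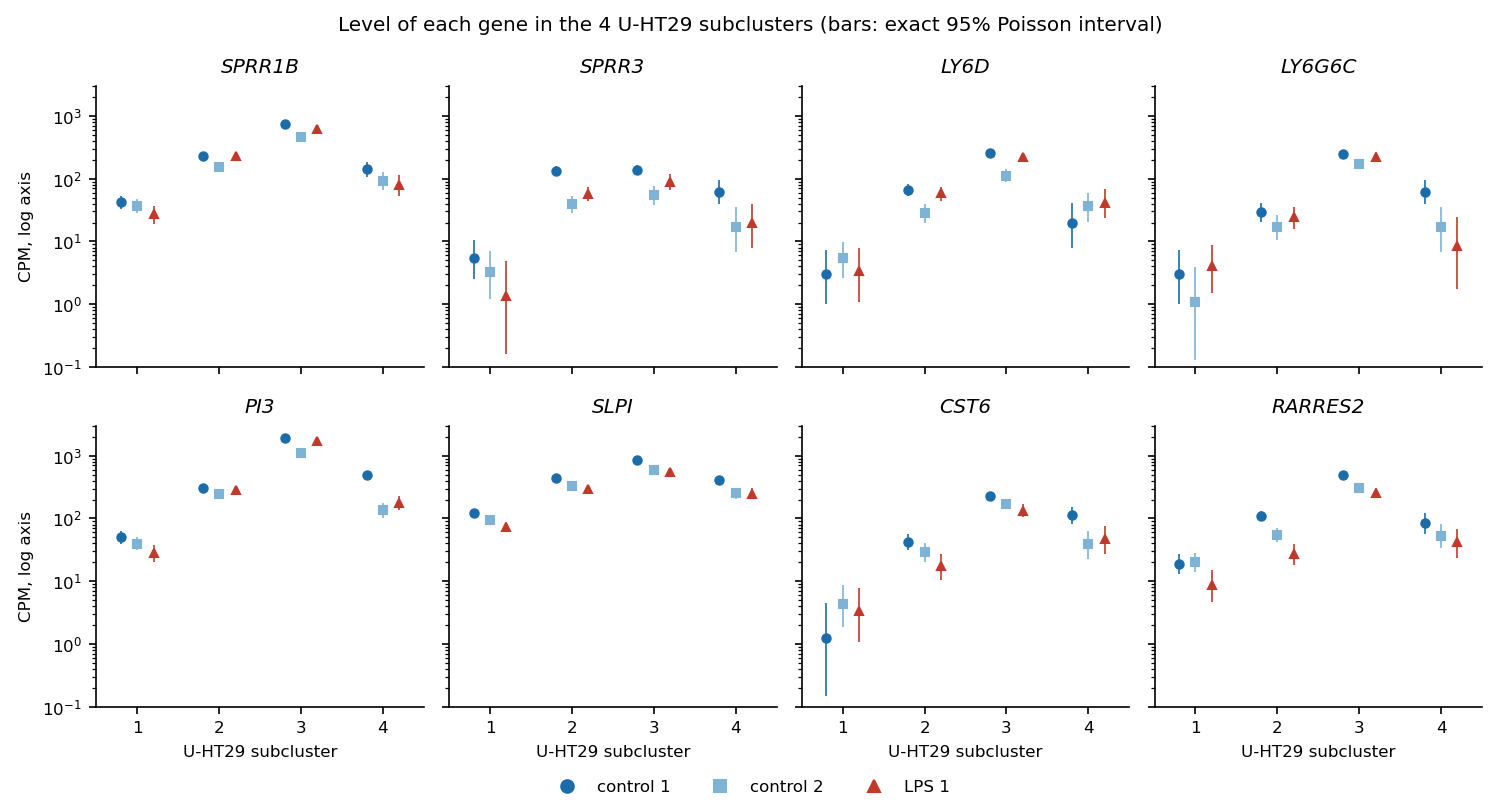
Level of each member (CPM, log axis shared by all panels) in the 4 subclusters of U-HT29, 1 point per library. Subcluster 3 is highest for every member by control mean, and subcluster 1 is lowest.

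Most U-HT29 cells showed few members at once. At 1500 UMIs per cell, 50.2%, 43.5% and 41.8% of U-HT29 cells had at least 1 member, and 18.2%, 9.28% and 8.71% had at least 3. In LYZ+ ECLC 12.7%, 1.53% and 2.70% of cells had at least 3, and 0 U-HT29 cells in any library had all 8. In subcluster 3 the shares with at least 3 members were 45.7%, 27.9% and 28.4%, and in subcluster 1 they were 0.877%, 0.691% and 0%. In pooled ISCLC, TALC and ECLC 9.51%, 7.84% and 5.91% of cells had at least 1 member, at depths set equal by the thinning. Only 0%, 0.0441% and 0% had at least 3. In ECLC itself PI3 was in 19.0%, 19.0% and 14.2% of thinned cells, and no other member was in more than 2.13%.

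Across U-HT29 cells, Pearson's r between members on log2(1 + thinned UMIs) was above 0 for all 28 pairs in every library (625, 948 and 815 cells). The median over pairs was 0.228, 0.167 and 0.217, and single pairs ranged from 0.0268 to 0.521. PI3 and SLPI, the neighbouring WAP genes, had r of 0.521, 0.457 and 0.393. SPRR1B and LY6G6C, on different chromosomes, had r of 0.406, 0.364 and 0.415, and cells with both were 4.0, 4.58 and 4.33 times as frequent as the product of their shares. SPRR1B and SPRR3, the neighbouring envelope genes, had r of 0.403, 0.212 and 0.341. LY6G6C and PI3, again on different chromosomes, had r of 0.40, 0.365 and 0.330. Neighbouring pairs and pairs far apart were thus both among the highest. Among the weakest, SPRR3 and LY6D had r of 0.132, 0.0271 and 0.193, and LY6D and SLPI 0.178, 0.0268 and 0.0901. The points share their library and each cell's thinned depth, and in sparse counts weak values carry little. The members were selected for being high together, and the share over other gene pairs was not computed. The count of pairs above 0 is therefore description only.

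Within subclusters the correlations depended on the subcluster and the library. The median over pairs was 0.0132, 0.0132 and -0.0105 in subcluster 1 (control 1, control 2, LPS) and 0.145, 0.102 and 0.142 in subcluster 3, each below the value over all U-HT29 cells of its library. In subcluster 2 it was 0.0951, 0.0797 and 0.269 and in subcluster 4 0.286, 0.148 and -0.0111, so LPS in subcluster 2 and control 1 in subcluster 4 were above it. PI3 with SLPI kept r between 0.473 and 0.534 within subcluster 3, and SPRR1B with LY6G6C between 0.389 and 0.443, so these pairs varied together also inside the subcluster where both were high.

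**Figure D4:**
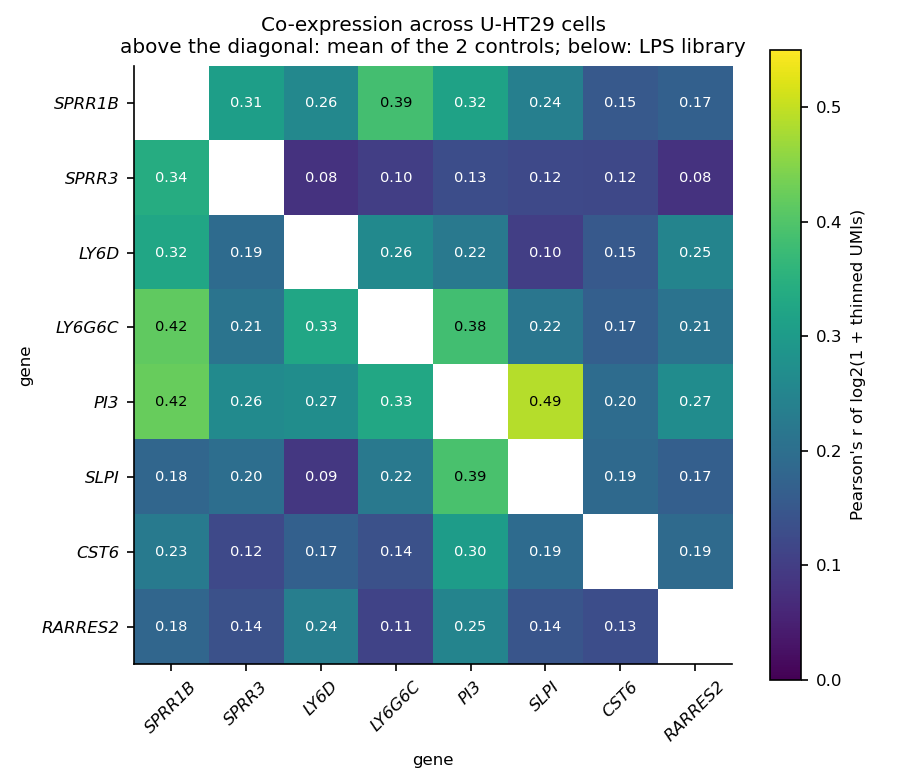
Pearson's r between members across U-HT29 cells of each library on log2(1 + UMIs thinned to 1500 per cell). All 28 pairs are above 0 on both sides of the diagonal, for members selected for being high together. PI3 with SLPI has the highest mean of the controls, 0.489.

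Since the members were high in the same cells, the RefSeq sequences of the 250 bases before the start of transcription are shown for the 4 members found in the sequence table, SPRR1B, SPRR3, LY6G6C and RARRES2 (GRCh38.p14). LY6D, PI3, SLPI and CST6 had no entry there. Capitals mark matches to TGANTCA, the AP-1 motif bound by FOS and JUN factors, or to TATAAA, the TATA box motif, with both strands searched. SPRR1B is chr1:153030953-153031202 on the plus strand, SPRR3 chr1:153001499-153001748 on the plus strand, LY6G6C chr6:31721747-31721996 on the minus strand, and RARRES2 chr7:150341630-150341879 on the minus strand.
SPRR1B: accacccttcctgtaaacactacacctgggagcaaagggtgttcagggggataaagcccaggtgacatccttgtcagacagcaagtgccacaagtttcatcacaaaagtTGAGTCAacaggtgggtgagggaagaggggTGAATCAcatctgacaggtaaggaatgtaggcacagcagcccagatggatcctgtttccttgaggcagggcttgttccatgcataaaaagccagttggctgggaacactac
SPRR3: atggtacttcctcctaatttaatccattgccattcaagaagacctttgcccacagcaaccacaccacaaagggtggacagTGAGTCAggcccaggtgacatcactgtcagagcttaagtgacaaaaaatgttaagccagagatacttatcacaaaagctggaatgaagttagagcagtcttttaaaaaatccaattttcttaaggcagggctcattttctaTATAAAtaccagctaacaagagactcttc
LY6G6C: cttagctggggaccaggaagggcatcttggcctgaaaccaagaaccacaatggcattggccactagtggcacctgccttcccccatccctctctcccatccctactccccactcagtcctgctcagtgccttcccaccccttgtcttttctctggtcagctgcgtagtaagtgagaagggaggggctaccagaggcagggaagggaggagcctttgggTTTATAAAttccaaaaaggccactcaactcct
RARRES2: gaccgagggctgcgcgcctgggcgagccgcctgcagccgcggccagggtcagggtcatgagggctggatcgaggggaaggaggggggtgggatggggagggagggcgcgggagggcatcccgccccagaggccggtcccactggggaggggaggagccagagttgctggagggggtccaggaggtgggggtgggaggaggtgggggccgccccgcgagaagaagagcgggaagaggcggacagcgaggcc

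SPRR1B held 2 AP-1 matches, 141 to 135 and 111 to 105 bases before the start, and SPRR3 held 1 at 170 to 164 bases and a TATA match at 29 to 24 bases. LY6G6C held 0 AP-1 matches and TATA matches on both strands that overlap, at 32 to 27 and 30 to 25 bases. RARRES2 held neither. Of 35116 windows of the same length before RefSeq genes, 6.57% had an AP-1 match and 10.7% a TATA match. The longest run of letters shared by SPRR1B and SPRR3 in the same orientation was gcccaggtgacatc, 14 bases, at 195 to 182 and 162 to 149 bases before their starts, and the other pairs of these 4 sequences shared at most 10. SPRR1B and LY6G6C shared neither match. Only these motifs were searched, and a link between the letters and the co-expression was not tested. A match is a description of the letters and not a site shown to be used.

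WFDC2 was the gene that recurred most often when genes outside the 8 members were ordered by how much their pattern resembled a member's. Likeness was the lowest of the 3 libraries' r with the member across U-HT29 cells, over 6138 genes compared, members left out. WFDC2, another secreted WAP protein, was among the closest 3 such genes of 5 members, with 0.269 for RARRES2, 0.254 for PI3, 0.240 for SLPI, 0.207 for LY6G6C and 0.173 for CST6. The keratins KRT16 and KRT17, found in activated keratinocytes, were close to LY6G6C (0.265 and 0.202), KRT16 also to SPRR1B (0.231) and KRT17 to SPRR3 (0.138). MUC15, a membrane mucin, came first for SPRR1B at 0.241 and second for PI3 at 0.230, members apart. S100A4, a calcium-binding protein, led for RARRES2 (0.270) and LY6D (0.162), and the long noncoding RNA UCA1 led for SPRR3 (0.167). Other genes among the closest 3 were GJB2 for SPRR1B, KRT19 and SNCG for LY6D, CEACAM7 for PI3, TIMP1 and IGFL2-AS1 for SLPI, CD55 and ADIRF for CST6, and CRABP2 for RARRES2, with values from 0.131 to 0.236.

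The other squamous genes are set here against all genes of the files, of which 28% reached 5 CPM in U-HT29 of both controls, 46.3% had 0 UMIs there, and, of those at 5 CPM, 17% were highest in U-HT29 among the named classes. Of 31 further cornified envelope and squamous surface genes in the files, 6 reached 5 CPM in U-HT29 of both controls, 4 of them (CNFN, EVPL, SCEL and SERPINB3) highest there, and 11 had 0 UMIs in U-HT29 of the controls. None of the other SPRR genes reached 5 CPM, and reads of so similar genes may have been divided between copies or dropped. SCEL (sciellin, an envelope precursor) was at 39.9 ± 0.194 CPM in U-HT29 and 0.828 CPM in ECLC, and SERPINB3, a serpin of squamous cells, at 14.5 ± 7.63 and 0.106 CPM (n = 2, control means). Of 14 epidermal keratins 5 reached 5 CPM and 4 were highest in U-HT29: KRT15, KRT16, KRT17 and KRT80. KRT17 was at 140 ± 14.2 CPM in U-HT29 and 379 CPM in subcluster 3, and KRT16 at 31.2 ± 0.0159 and 119 CPM. Of the listed squamous transcription factors 10 of 15 reached 5 CPM, with OVOL1, ELF3 and FOSL1 highest in U-HT29 and the rest of the 10 higher in another class. TP63, ZNF750, GRHL3, SOX15 and BARX2 did not reach it.

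The same counts were made for the protein families and partners of the members. In the LY6/uPAR family 6 of 20 reached 5 CPM and 4 (LYPD6B, PSCA, PLAUR and CD59) were highest in U-HT29, with PLAUR, the urokinase receptor, at 303 ± 14.7 CPM. In the WAP family 1 of 16 further genes, WFDC2, reached it, at 741 ± 305 CPM in U-HT29 and at 2075 ± 236 CPM in FGEC (n = 2), the highest class. Of 11 cystatins 2 did, CST3 and CSTB, and CSTB was highest in U-HT29 at 1207 ± 44.7 CPM. Of the 8 proteases that PI3 or SLPI are known to inhibit or that are close to them, PRSS1 and PRSS2 reached 5 CPM, and these near-identical trypsinogens may share reads. All 6 listed cysteine proteases related to CST6 reached it, with CTSS alone highest in U-HT29 (19.5 ± 0.183 CPM), and none of the 3 chemerin receptors did. Of 14 retinoid genes 7 reached it, with RARRES3, RARG and CRABP2 highest in U-HT29. CRABP2, which carries retinoic acid to its receptor, was at 790 ± 39.1 CPM in U-HT29, 188 CPM in LYZ+ ECLC and 12.7 CPM in ECLC.

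The 2 control Transwells differed for every member. Control 1 was 1.53 (SLPI) to 3.36 (SPRR3) times control 2 in U-HT29, and 8 of 8 members were at least 1.5 times higher in control 1. Over all 12031 genes tested in U-HT29 7.9% were, and the median gene was at 0.982 times. The ratio was 2.02 for PI3, 1.77 for SPRR1B, 1.94 for LY6G6C, 2.40 for LY6D, 1.71 for CST6 and 1.91 for RARRES2. Subcluster 3 made up more of U-HT29 in control 1 (25.9%) than in control 2 (19.3%), and control 1 was also the higher inside all 4 subclusters for SPRR1B, SPRR3, LY6G6C, PI3 and SLPI. For LY6D control 1 was higher in 2, and for CST6 and RARRES2 in 3, of the 4 subclusters. SCEL, KRT16 and CRABP2 lay close together in the controls, with 39.7 and 40.0 CPM, 31.1 and 31.2 CPM, and 762 and 817 CPM, while WFDC2 differed as the members did, with 956 and 525 CPM. SERPINB3 was also higher in control 1, at 68.7 and 51.5 CPM in subcluster 3 and 9.85 and 0.542 CPM in subcluster 1. U-HT29 cells of control 1 were also sequenced deeper, with a median of 5523 against 3756 UMIs, and the part of depth or of subcluster shares in the control difference was not tested.

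The LPS comparison asked whether 24 hours of lipopolysaccharide moved the members. Neither in U-HT29 nor in the Caco-2-type cells did SPRR1B, SPRR3, LY6D, LY6G6C, PI3, SLPI or CST6 pass the test. RARRES2 passed as lower in the Caco-2-type cells only. That call rested mostly on UMIs of LYZ+ ECLC and was lost in some of the alternatives, as given below. Each library's UMI counts were added up by class and tested over all genes with edgeR's quasi-likelihood test. With 2 controls and 1 LPS library there was 1 residual degree of freedom, and the lone LPS library was assumed to vary like the controls. In simulated data the test found 24% of 2-fold and 92% of 4-fold changes for U-HT29. For the Caco-2-type cells it found 83% and 98%. A member that did not pass is therefore not shown to be unchanged. In the same simulated data 7.65% of the calls for the Caco-2-type cells and 0.855% of those for U-HT29 were false.

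In U-HT29, 20 of 12031 genes (0.166%) passed at an adjusted p under 0.05, 17 higher and 3 lower, and 0 of the 8 members were among them. RARRES2 came closest, with 152.3 and 79.8 CPM in the controls and 58.6 CPM in LPS, a log2 fold change of -1.04 ± 0.28 (SE) and an adjusted p of 0.0841 (edgeR, Benjamini-Hochberg). CST6, at 71.9, 42.0 and 33.7 CPM, had -0.81 ± 0.28 and an adjusted p of 0.775. SLPI had -0.53 ± 0.26, SPRR3 -0.60 ± 0.28, LY6G6C -0.23 ± 0.27, PI3 -0.16 ± 0.25, SPRR1B -0.15 ± 0.26 and LY6D 0.05 ± 0.27, none with an adjusted p under that of CST6. For the last 5 of these the LPS library lay between the controls, so the change was smaller than the distance from one untreated Transwell to the other. The SEs were 0.25 to 0.28 for all 8 members, although control 1 was 1.53 to 3.36 times control 2. In U-HT29 the SEs and p thus rest on a variance fitted across genes. They do not measure a member's own spread between the control Transwells. SLPI, CST6 and RARRES2 were below both controls, 3 of 8 members, against 24.4% of all genes tested. SLPI and RARRES2 were below both in all 4 subclusters, 2 of 8, against 1.6%. SLPI in subcluster 4 was only just below, at 249 CPM (90 UMIs) in LPS and 252 CPM (104 UMIs) in control 2. The 4 subclusters come from the same LPS library and are not replicates of each other. RARRES2 read 19.1, 20.1 and 8.75 CPM in subcluster 1, 110, 55.3 and 27.2 CPM in subcluster 2, and 84.6, 53.4 and 41.6 CPM in subcluster 4. The call for RARRES2 depended on how cells were put in the class, since it passed with an adjusted p of 0.0267 for cells assigned by line-specific genes and of 0.0355 after log normalization (range over 8 alternatives 0.0267 to 1.0). It also leaned on control 1: the log2 fold change was -0.48 without control 1 and -1.44 without control 2, values with no test.

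UCA1, the gene outside the members most like SPRR3, was among the 3 genes called lower in U-HT29, with a log2 fold change of -1.14 and an adjusted p of 0.0273 (edgeR, Benjamini-Hochberg). The call was lost in 5 of 8 alternatives (adjusted p from 0.0254 to 1.0 over all 8), with log2 fold changes of -1.05 to -1.14, and without control 1 the value was -0.48. KRT16, close to SPRR1B and LY6G6C, had -1.13 and an adjusted p of 0.145 by the same test. In the 10 fixed lists of related genes 0 passed in either direction. The median log2 fold change was -0.23 over 9 cornified envelope genes tested, -0.39 over 7 keratins, -0.21 over 8 LY6/uPAR genes and 0.02 over 9 retinoid genes, beside -0.0064 over all genes tested.

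**Figure D5:**
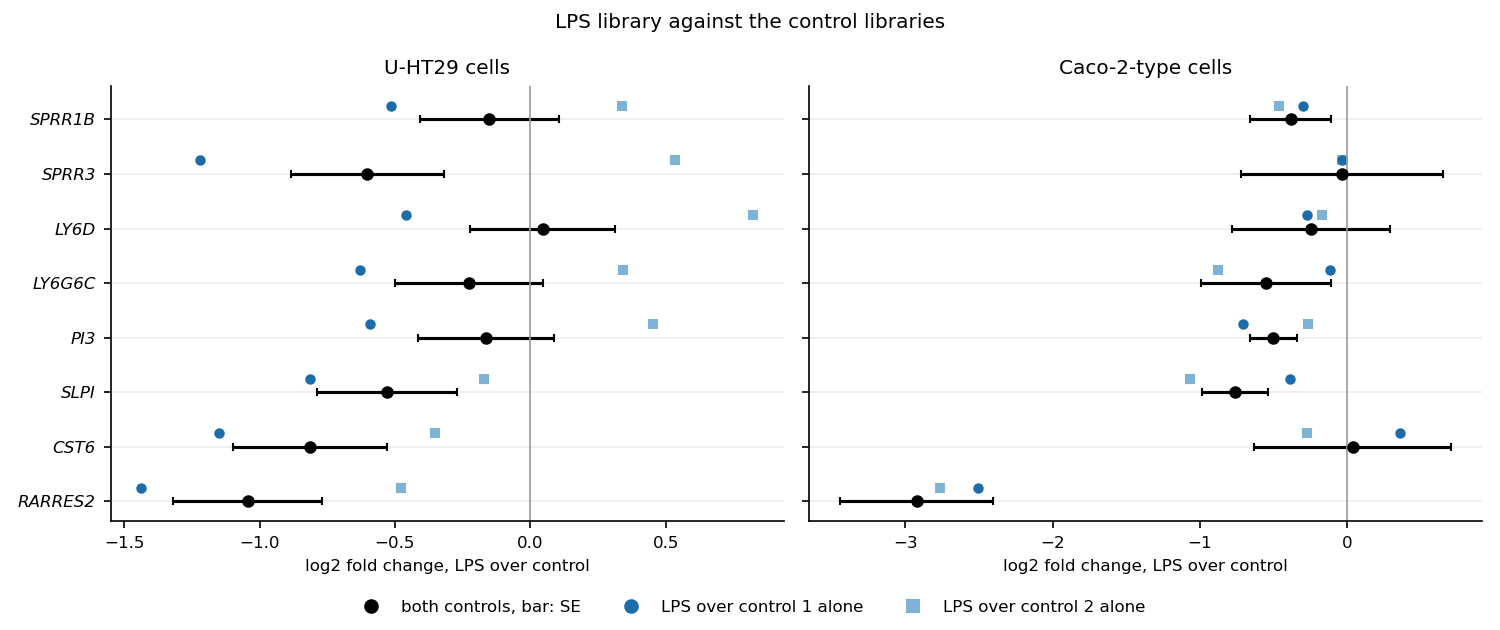
Log2 fold change of each member in LPS against the 2 controls with its standard error, in U-HT29 and in Caco-2-type cells (edgeR). RARRES2 in Caco-2-type cells, at -2.92, is the value that passed the test, and most U-HT29 values lie within 1 unit of 0.

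In the Caco-2-type cells (ISCLC, TALC, ECLC and LYZ+ ECLC pooled) 4 of 14613 genes were called higher and 4 lower (0.0274% lower), and RARRES2 was 1 of the 4. RARRES2 had 61 and 60 UMIs in the controls and 6 in LPS, which was 3.53, 4.47 and 0.545 CPM, and a log2 fold change of -2.92 ± 0.52 with an adjusted p of 0.0125 (edgeR, Benjamini-Hochberg). Both controls were apart from LPS at this low level. Of those UMIs, 48 of 61, 52 of 60 and 2 of 6 came from LYZ+ ECLC, a class that held 1.53%, 3.93% and 0.763% of kept cells. Within LYZ+ ECLC alone RARRES2 read 54.6, 42.5 and 6.57 CPM, with exact 95% Poisson intervals of 40.3 to 72.4, 31.8 to 55.8 and 0.796 to 23.7 CPM. LPS was the lowest library there as well, though on 2 UMIs. Without LYZ+ ECLC, a choice made after seeing the data, RARRES2 was too low to be tested, with 0.793, 0.656 and 0.374 CPM. RARRES2 also did not pass with library sizes in place of TMM (log2 fold change -2.85, adjusted p 0.0559), with DESeq2 size factors (-2.93, 0.606), with DESeq2's Wald test (-2.96, 1.0) or with doublets kept (-2.15, 0.172). The fold thus stayed close in the first 3 and was smaller in the last, and the adjusted p ranged from 7.32e-06 to 1.0 over 8 alternatives.

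PI3 in the Caco-2-type cells had a log2 fold change of -0.50 ± 0.16 and an adjusted p of 0.470, and SLPI -0.76 ± 0.22 and 0.385 (edgeR, Benjamini-Hochberg). PI3 in ECLC read 725, 478 and 316 UMIs, or 153, 163 and 123 CPM, with LPS the lowest. Without LYZ+ ECLC the log2 fold change was -0.53 (adjusted p 0.217) for PI3 and -0.37 (adjusted p 0.746) for SLPI. PI3 passed for cells assigned by line-specific genes (adjusted p 0.000648) and SLPI without a filter on low counts (0.0462). SPRR1B had -0.38 and LY6G6C -0.55, at adjusted p of 0.801 and 0.830, and SPRR3, LY6D and CST6 had -0.03, -0.24 and 0.04. IGFL2-AS1, close to SLPI in U-HT29, was among the 4 genes called lower here, at -1.42 and an adjusted p of 0.00328, a call lost in 6 of 9 alternatives (adjusted p from 2.92e-07 to 0.652). Its log2 fold change was -0.58 for cells assigned by line-specific genes, -0.72 after log normalization and -0.90 without LYZ+ ECLC. Assignment by line-specific genes takes in the clusters without a name, so it does not compare the same cells as the Caco-2-type classes.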

How the data were processed

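Single-cell 3′ libraries (10x Genomics) of 2 control Transwells and 1 LPS Transwell were read as the deposited matrices, whose values are raw UMI counts that the authors made with Cell Ranger 3.1.0 (per the file headers) on GRCh38, without normalization. The members, gene lists and tests were chosen with earlier results of these data known.

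Cells with at least 2250 UMIs and 770 genes (control 1) or 1500 UMIs and 700 genes (control 2 and LPS) and at most 20% mitochondrial UMIs were kept. Scrublet's own threshold marked 0, 0 and 1 doublets and so had not worked, and the 6% of cells with the highest scores were removed. Counts were normalized with sctransform 0.4.2, integrated with Seurat 5.3.0 on 3000 features without the members, and clustered (50 components, Leiden resolution 0.5) with leidenalg 0.10.2. Scrublet and the alternative with log normalization were run in scanpy 1.11.5. Subclusters of U-HT29 used resolution 0.3. Classes were named from fixed markers.

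Counts were summed per class and library and given as CPM with exact Poisson intervals at 95% in the tables. LPS was tested with edgeR 4.0.16 (TMM, filterByExpr, quasi-likelihood, Benjamini-Hochberg, adjusted p under 0.05). DESeq2 1.42.0 was an alternative. Scripts were tested on simulated data. Other alternatives changed normalization, filters, doublet removal, class assignment and replicates. Named genes are the members, the 3 genes most like each (with a UMI in at least 2% of cells), genes of fixed lists at 5 CPM or more and the 5 leading genes of each subcluster. Listed transcription factors below 5 CPM are named as well. Of these, 1 gene is not reported here.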

Additional observations from a re-analysis of the deposited data

How the results depend on the processing

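No paired analysis was possible because controls and LPS share only replicate number 1. Of the tested alternatives for the members' log2 fold changes, 118 kept direction and side of the threshold, 6 reversed, 4 passed and 4 no longer passed. With a control left out there is no test, and 26 values kept their direction and 6 reversed. Values of each member in U-HT29 moved by less than 1 SD of the controls under every class, doublet and depth setting tried. That SD is wide, with control 1 at 1.53 to 3.36 times control 2, so the criterion is a loose one. At a clustering resolution of 0.8, moreover, a U-HT29 subcluster of 1008 cells, led by LCN15, got no class name. The U-HT29 levels for that setting, such as 433 CPM for PI3 against 427 CPM, appear to count its cells still. Levels without those cells were not taken. By control mean all members were lowest in subcluster 1 of the main clustering, which has LCN15 among its leading genes. In U-HT29 the 20 genes called became 0 without TMM (202 at an unadjusted p under 0.05) and 0 without a filter (229), against 342 with edgeR as planned, and 4 with DESeq2's Wald test, 11 with doublets kept and 10 at the minimums of control 1. In Caco-2-type cells the 8 called became 3 without TMM, 0 with DESeq2 size factors (947 at an unadjusted p under 0.05), 0 with DESeq2's Wald test (213), 0 with doublets kept (982), 47 without a filter, 57 for cells assigned by line-specific genes and 20 without LYZ+ ECLC, which was left out as a choice made once values were seen. The causes were not tested.

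Leaving out a control turned the U-HT29 log2 fold change of 5 members: SPRR1B -0.52 to 0.34, SPRR3 -1.22 to 0.53, LY6D -0.46 to 0.82, LY6G6C -0.63 to 0.34 and PI3 -0.59 to 0.45. SLPI (-0.81 to -0.17), CST6 (-1.15 to -0.35) and RARRES2 (-1.44 to -0.48) kept their sign. LY6D in U-HT29 read -0.049 for cells assigned by line-specific genes. In Caco-2-type cells, sign changes were SPRR1B 0.10, LY6D 0.11 and CST6 -0.024 with doublets kept, SPRR3 0.045 without TMM, LY6D 0.53 by line-specific genes, and CST6 -0.28 to 0.36 when a control was left out. The median co-expression r was 0.198 over the controls, 0.362 on counts not thinned, and 0.167 to 0.228 with a control left out. Members with few UMIs outside U-HT29 could not be compared there, and 1 LPS library with 1 residual degree of freedom limits every LPS test.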

Other observations

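Small classes held members at levels that rested on few molecules. FGEC, with 23, 42 and 8 cells in control 1, control 2 and LPS, had LY6G6C at 34.1, 68.3 and 0 CPM on 7, 19 and 0 UMIs. RARRES2 in FGEC was at 58.5, 18.0 and 0 CPM on 12, 5 and 0 UMIs, and SLPI at 48.7, 28.8 and 26.6 CPM. LY6G6C and RARRES2 were therefore detected in FGEC of both controls, and the LPS library had too few FGEC cells for a comparison. The unnamed cluster of 9, 26 and 42 cells had SLPI at 63.4, 502 and 227 CPM on 3, 70 and 41 UMIs and PI3 at 63.4, 279 and 44.3 CPM on 3, 39 and 8 UMIs.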
